A study of Mus musculus with 18 samples.

Results

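The mouse receptors for the Fc part of IgG and the neonatal Fc receptor (FcRn) were followed in hematopoietic progenitors with and without *Trim33*. The rows of the FPKM tables whose symbol is *Fcgr1*, *Fcgr2b*, *Fcgr3*, *Fcgr4*, *Fcer1g* or *Fcgrt* were taken, 6 genes of the 19919 listed in at least 1 of the 3 tables, and each was listed in all of them. Multipotent progenitors (MPPs), CD115- common dendritic cell progenitors (CD115- CDPs) and common lymphoid progenitors (CLPs) were sorted from the bone marrow of C57BL/6 mice 6 to 8 weeks old, with 3 libraries per genotype in each population and 18 in all. The WT mice were Trim33 fl/fl. The KO mice were Trim33 fl/fl Cre-ERT2, in which tamoxifen activates Cre in all tissues, so that deletion was not limited to the sorted cells and Cre itself was present only in the KO group. The methods describe induction by 5 daily injections of 2 mg tamoxifen, with analysis 7 days later, and the study's supplement calls the mice of both genotypes in the progenitor RNA-seq tamoxifen-treated. The comparison asks how the inhibitory receptor gene *Fcgr2b* and the genes of the activating receptors and their shared chain differ between genotypes in each population.

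Fc gamma receptors bind the constant region of IgG and couple antibody to the responses of the cell. FcγRI, FcγRIII and FcγRIV, encoded by *Fcgr1*, *Fcgr3* and *Fcgr4*, are activating: they pair with the FcR gamma chain encoded by *Fcer1g*, which carries an immunoreceptor tyrosine-based activation motif (ITAM) that Src family kinases phosphorylate and the kinase Syk then binds. FcγRIIB, encoded by *Fcgr2b*, is the single inhibitory receptor for IgG. It carries an inhibitory motif (ITIM) in its own tail, which recruits the phosphatase SHIP1 (*Inpp5d*), and it needs no gamma chain. FcRn, the product of *Fcgrt*, is not a signaling receptor but a class I-like molecule that pairs with β2-microglobulin (*B2m*) and returns IgG and albumin from endosomes to the cell surface. In bone marrow, an antibody against CD16/32 recognizes the products of both *Fcgr3* and *Fcgr2b*. CD16/32 was not among the antigens given for gating these populations.

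The depth estimated from the smallest steps between FPKM values was 19.3 to 21.3 M reads per library, at which 1 read is worth between about 0.0193 FPKM for *Fcgr1* and 0.0784 FPKM for *Fcer1g*. FPKM is the number of fragments scaled to transcript length and to library size, so that levels are per length and can be compared between genes. *Trim33*, the targeted gene, was 8.78 to 10.42 FPKM in WT MPPs and 9.71, 11.66 and 4.80 FPKM in the MPP libraries labelled KO 1, KO 2 and KO 3; the deletion removes exons 2 to 4 and most of the transcript lies outside them, so these values do not check the deletion and libraries are called by their label. Of the antigens used for sorting, *Flt3* was present at 146.80 to 309.88 FPKM in all WT libraries and *Il7r* (CD127) at 32.56 to 63.03 FPKM in WT CLPs, while *Csf1r*, the gene of CD115, was still at 39.11 to 136.77 FPKM in WT CD115- CDPs. Some sorting genes differed between WT and KO-labelled libraries without overlap. In MPPs *Kit* (71.63 to 74.8 and 29.92 to 49.88 FPKM) and *Ly6a* (59.28 to 76.42 and 33.93 to 43.14 FPKM) were lower in KO-labelled libraries. In CLPs *Itgax*, the gene of CD11c, was lower (54.8 to 69.66 and 5.36 to 7.47 FPKM) and *Kit* higher (11.49 to 13.84 and 18.63 to 22.44 FPKM). The CD115- CDP libraries numbered 3 stood apart from the others in both genotypes: neutrophil precursor genes summed to 4678 FPKM in WT 3 and 4483 FPKM in KO 3 against 699 to 1081 FPKM in the other 4, and monocyte and macrophage genes to 1498 FPKM in WT 3 against 296 and 198 FPKM in WT 1 and WT 2, and to 253 FPKM in KO 3 against 60.2 and 46.2 FPKM in KO 1 and KO 2. Results in CD115- CDPs are therefore given with and without both libraries, and with the replicate number as a block, since same-numbered WT and KO-labelled libraries deviated together in CD115- CDPs and CLPs. In CD115- CDPs this mainly set number 3 apart, while numbers 1 and 2 were not clearly told apart (correlations of 0.381 and 0.663 across them).

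The receptor genes lie close together, and *Fcgr2b* and *Fcgr3* share sequence that a 50-base read cannot assign. In GRCm38, the mm10 build, *Fcgr2b* (Entrez 14130) spans chr1:170960558-170976071, *Fcgr4* (246256) chr1:171018926-171029761, *Fcgr3* (14131) chr1:171051169-171065915 and *Fcer1g* (14127) chr1:171229572-171234349, while *Fcgr1* (14129) lies at chr3:96282909-96293969 and *Fcgrt* (14132) at chr7:45092993-45103822. Of the stretches of 50 bases in the *Fcgr3* transcript of GENCODE vM21, 12.8% are identical in *Fcgr2b*, and these 166 stretches make up 11.7% of the shorter *Fcgr2b* transcript; no other pair of the 6 genes shares any. The longest identical coding stretch, 129 bases over exons 3 and 4, lies on the minus strand within chr1:170966674-170968081 in *Fcgr2b* and chr1:171054167-171057792 in *Fcgr3*, spans in which an intron divides it. It is shown because reads inside it fit both genes, with no capitals since all of it is shared.
Fcgr2b and Fcgr3 shared coding stretch: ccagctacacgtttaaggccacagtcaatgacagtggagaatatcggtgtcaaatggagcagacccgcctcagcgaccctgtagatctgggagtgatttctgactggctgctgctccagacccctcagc
The authors' quantification with RSEM divides such reads between the genes by estimate, so that the FPKM of both are uncertain to that extent, and the division was not checked here. The longer *Fcgr2b* transcript, of 3544 bases, shares 436 of its stretches (12.5%) with transcripts of 145 genes, *Fcgr3* among them. Where *Fcgr2b* was highest, in the KO-labelled CLPs, *Fcgr3* FPKM was 0.708%, 0.811% and 0.804% of *Fcgr2b* FPKM.

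A short motif was found in the promoters of the 3 activating receptor genes and not in those of *Fcgr2b* or *Fcer1g*. GAGGAA, a purine-rich core of the kind bound by ETS factors such as PU.1, was searched on both strands of the RefSeq promoter windows of GRCm38.p6, from 250 bases before to 50 after each start; no other motif was searched. All 6 genes had a window. *Fcgr3* had a further window at chr1:171059345-171059644, which also held the motif and is not shown. Both *Fcgr3* windows lie inside the gene span of chr1:171051169-171065915, at internal starts and not at its upper end. The motif was found in those of *Fcgr1*, *Fcgr3* and *Fcgr4*, each time as TTCCTC on the strand of the gene, and not in those of *Fcgr2b*, *Fcer1g* or *Fcgrt*, and 28.3% of all 32851 promoters hold it. The 100 bases before the start are shown for the inhibitory gene and the 3 activating receptor genes, with the motif in capitals, from chr1:170976072-170976171 (minus strand), chr3:96293970-96294069 (minus strand), chr1:171059404-171059503 (minus strand) and chr1:171018826-171018925 (plus strand).
Fcgr2b: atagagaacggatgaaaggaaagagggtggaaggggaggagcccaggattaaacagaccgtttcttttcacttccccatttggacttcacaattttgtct
Fcgr1: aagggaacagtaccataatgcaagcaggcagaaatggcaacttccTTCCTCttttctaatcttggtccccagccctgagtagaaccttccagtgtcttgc
Fcgr3: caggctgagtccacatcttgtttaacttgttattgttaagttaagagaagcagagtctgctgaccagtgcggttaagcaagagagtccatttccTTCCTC
Fcgr4: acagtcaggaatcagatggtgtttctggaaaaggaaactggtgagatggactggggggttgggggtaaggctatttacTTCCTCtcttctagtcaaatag
A match describes these letters only, and binding was not measured in these libraries. The lack of a match does not show that a promoter has no ETS site, since cores with other flanking letters were not searched. The *Fcgr2b* bases shown do hold GGAA with other flanking letters. The paper cites earlier work in which TRIM33 opposed transcription of *Fcgr2b* directed by PU.1, which was not tested here.

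*Fcgr2b* rose in KO-labelled MPPs and CLPs, and its values did not overlap between genotypes in any of the 3 populations. In MPPs it was 12.38, 12.67 and 11.96 FPKM in WT and 121.12, 105.93 and 135.11 FPKM in KO-labelled libraries. The lowest KO-labelled library was 8.36 times the highest WT library, and the mean went from 12.3 ± 0.357 to 120.7 ± 14.6 FPKM (SD, n = 3 each), a ratio of 9.79. The log2 fold change on the log2(FPKM + 1) scale was 3.18 (standard error, SE, 0.111, adjusted p by limma = 0.000366), the lowest p of the 12372 genes tested and the 7th largest rise. In CLPs it was 21.47, 22.39 and 20.76 FPKM in WT and 137.01, 171.47 and 182.87 FPKM in KO-labelled libraries. The WT libraries were nearly equal, and the lowest KO-labelled library was 6.12 times the highest of them. The log2 fold change was 2.86 (SE 0.122, adjusted p by limma = 3.96e-06), the 3rd largest rise in CLPs. In these bulk libraries, more cells that express a gene and more RNA per cell cannot be told apart.

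In CD115- CDPs *Fcgr2b* was 14.03, 10.85 and 34.65 FPKM in WT and 124.83, 119.60 and 140.19 FPKM in KO-labelled libraries. WT 3 was the high WT library, and the lowest KO-labelled library was still 3.45 times its value. The log2 fold change of 2.80 (SE 0.398) did not pass the test over all 6 libraries (limma adjusted p = 0.111). It passed with the replicate number as a block (adjusted p = 0.00528), without WT 3 alone (3.27, adjusted p = 0.0145), and without both libraries numbered 3, an alternative added after the data were seen, where it was 3.21 (adjusted p = 4.74e-05).

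**Figure D1:**
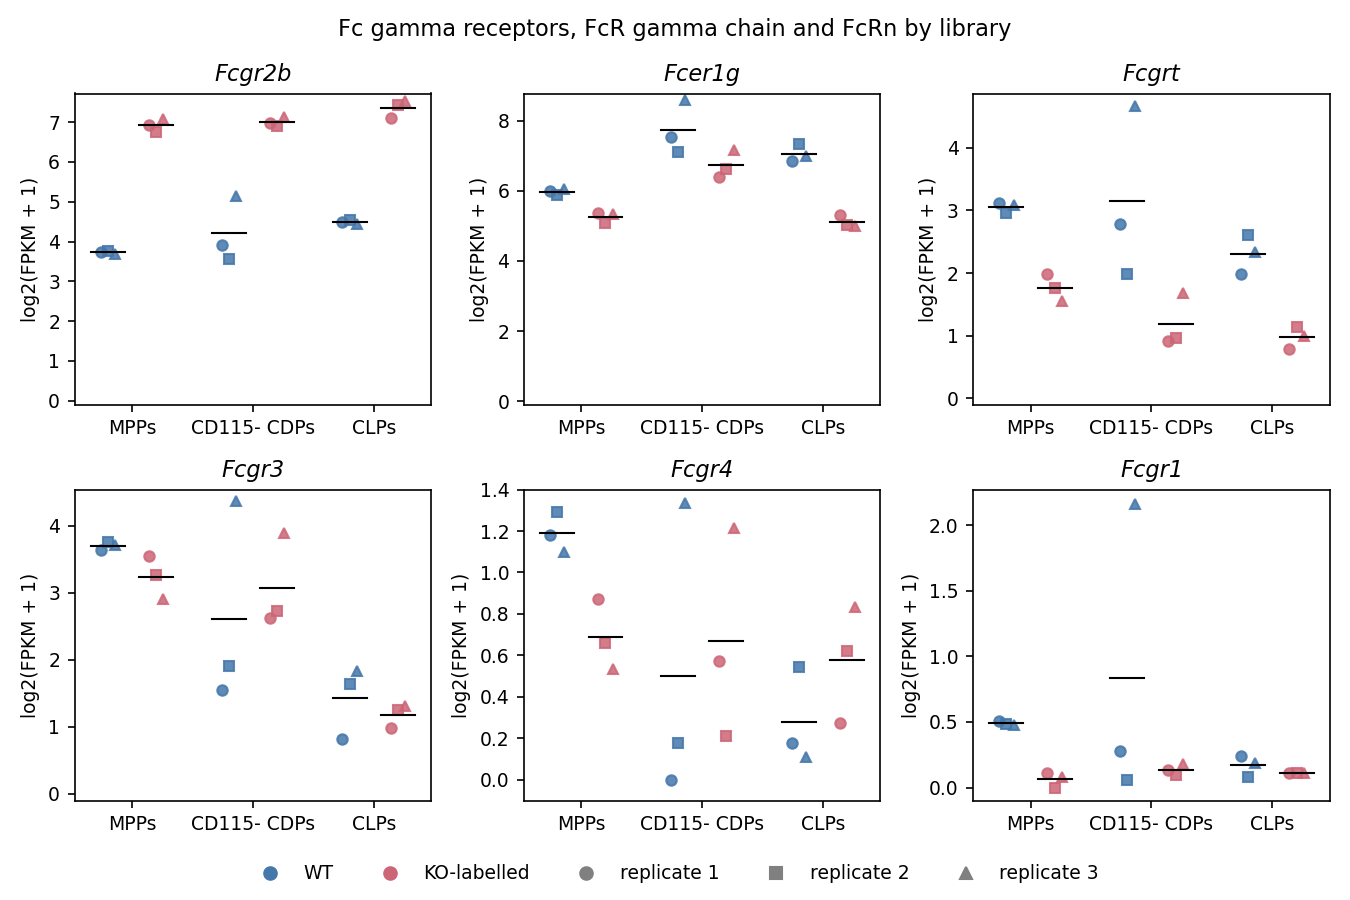
Level of each gene in every library as log2(FPKM + 1), by population; blue points are WT and red points KO-labelled libraries, the shape gives the replicate number and the black line the mean of 3 libraries. The 3 KO-labelled libraries of *Fcgr2b* lie above all WT libraries in each population, and in CD115- CDPs the WT library numbered 3 is the highest WT library for every gene.

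*Fcer1g*, the signaling chain of the activating receptors, was lower in KO-labelled libraries, most of all in CLPs. There it was 115.01, 159.82 and 126.39 FPKM in WT and 38.28, 31.55 and 30.95 FPKM in KO-labelled libraries. The groups did not overlap, the WT mean was 3.98 times the KO-labelled mean, and *Fcer1g* fell by 1.95 on the log2 scale (SE 0.143, adjusted p by limma = 6.09e-05). In MPPs it was 62.78, 57.35 and 65.75 FPKM in WT and 40.37, 32.53 and 39.79 FPKM in KO-labelled libraries, again without overlap. The log2 fold change there was -0.71 (SE 0.115, adjusted p by limma = 0.0273), under the minimum of 1 that a call also required. In CD115- CDPs it was 184.92, 136.77 and 385.49 FPKM in WT and 83.36, 97.52 and 142.63 FPKM in KO-labelled libraries. KO 3 lay above WT 2, the log2 fold change was -1.02 (SE 0.401, adjusted p by limma = 0.462, or 0.0283 with the replicate block, which made it a call), without both libraries numbered 3 it was -0.81 (adjusted p = 0.0462), and without WT 3 alone -0.59 (adjusted p = 0.466).

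*Fcgrt*, the heavy chain of FcRn, fell in MPPs and CLPs. In MPPs it was 7.65, 6.75 and 7.47 FPKM in WT and 2.96, 2.4 and 1.94 FPKM in KO-labelled libraries, which gave -1.28 as log2 fold change (SE 0.149, adjusted p by limma = 0.0104). The groups were far apart, but the call was lost without any 1 of the WT libraries, where the adjusted p lay between 0.0710 and 0.0976. In CLPs it was 2.96, 5.09 and 4.03 FPKM in WT and 0.73, 1.2 and 0.99 FPKM in KO-labelled libraries, and the log2 difference between genotypes was -1.33 (SE 0.179, adjusted p by limma = 0.00181). In CD115- CDPs it was 5.86, 2.95 and 24.50 FPKM in WT and 0.88, 0.95 and 2.2 FPKM in KO-labelled libraries. The groups did not overlap although WT 3 was far above WT 1 and WT 2, and the log2 fold change of -1.96 (SE 0.670) passed with the replicate block (adjusted p = 0.0283) and not without it (adjusted p = 0.410). Without both libraries numbered 3 it was -1.44 (adjusted p = 0.0285), and without WT 3 alone -1.20 (adjusted p = 0.398).

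The 3 genes of the ligand-binding chains of the activating receptors were not called in any population. *Fcgr3*, the low-affinity receptor of myeloid and NK cells, was 11.39, 12.57 and 12.08 FPKM in WT MPPs and 10.74, 8.60 and 6.47 FPKM in KO-labelled MPPs. The KO-labelled libraries lay below the WT ones with a log2 fold change of -0.46 (SE 0.179, adjusted p by limma = 0.184). In CD115- CDPs *Fcgr3* was 1.92, 2.74 and 19.56 FPKM in WT and 5.16, 5.59 and 13.79 FPKM in KO-labelled libraries. Within each genotype the library numbered 3 was the highest, the log2 fold change was 0.47 (SE 0.775, adjusted p by limma = 0.888), and without both of them it was 0.95 (adjusted p = 0.0475), just under the minimum fold. In CLPs *Fcgr3* was 0.77, 2.13 and 2.58 FPKM in WT and 0.97, 1.39 and 1.47 FPKM in KO-labelled libraries, which overlapped (log2 fold change -0.26, SE 0.252, limma adjusted p = 0.543).

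*Fcgr4*, a receptor of monocytes, macrophages and neutrophils, was low throughout. It was 1.27, 1.45 and 1.14 FPKM in WT MPPs and 0.83, 0.58 and 0.45 FPKM in KO-labelled MPPs, or about 29 to 36 and 11 to 21 reads, and the log2 fold change of -0.50 (SE 0.129) did not pass the test (limma adjusted p = 0.0885). In CD115- CDPs it ranged from 0 to 1.52 FPKM in WT and from 0.16 to 1.32 FPKM in KO-labelled libraries, with library 3 the highest in both genotypes. *Fcgr1*, the high-affinity receptor of macrophages and dendritic cells, was 0.42, 0.40 and 0.39 FPKM in WT MPPs and 0.08, 0 and 0.06 FPKM in KO-labelled MPPs, or about 21 to 22 and 0 to 4 reads. These values did not overlap, but the mean over the 6 libraries was below the 0.5 FPKM needed for testing. With no such minimum, the log2 fold change in MPPs was -0.42 (limma adjusted p = 0.0105), a scale on which a pseudocount of 1 compresses such low values. In CD115- CDPs *Fcgr1* was 0.21, 0.04 and 3.48 FPKM in WT and 0.10, 0.07 and 0.13 FPKM in KO-labelled libraries, so that the group difference rests on WT 3. In CLPs *Fcgr1* was 0.06 to 0.18 FPKM in WT and 0.08 FPKM in every KO-labelled library, and *Fcgr4* 0.08 to 0.46 and 0.21 to 0.78 FPKM, and neither reached the minimum for testing.

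**Figure D2:**
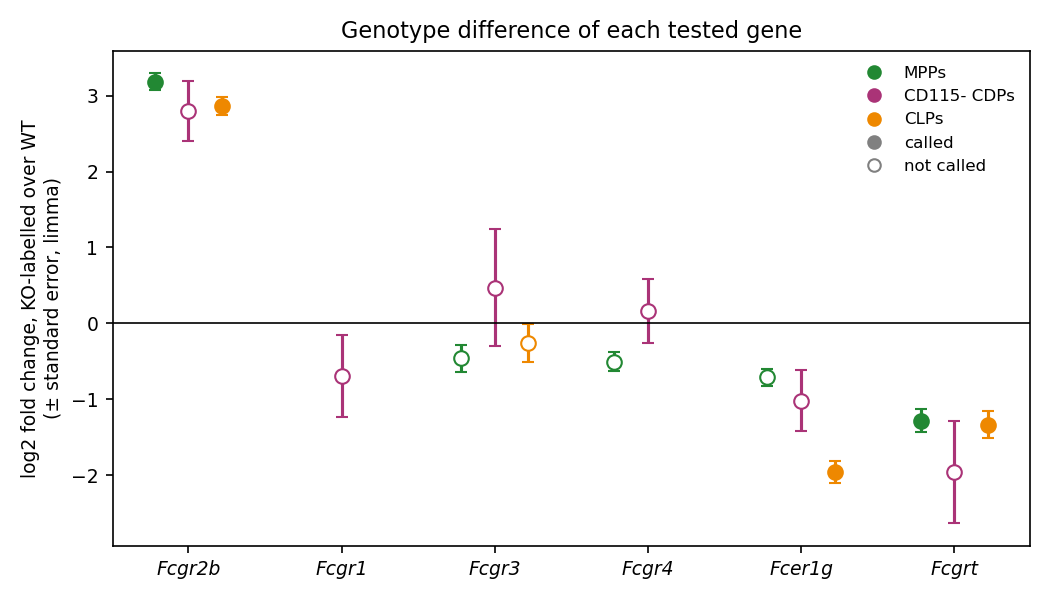
Log2 fold change of each tested gene, KO-labelled over WT, with its standard error from limma without the replicate block; filled points passed an adjusted p of 0.05 and a log2 fold change of 1. *Fcgr2b* lies between 2.80 and 3.18 in all 3 populations while *Fcer1g* and *Fcgrt* lie below 0 in each.

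Counted over the 6 genes, those tested numbered 5 (MPPs), 6 (CD115- CDPs) and 4 (CLPs). In MPPs 1 of 5 was called higher, against 0.162% of all 12372 genes tested, and 1 of 5 lower, against 1.32%. In CLPs 1 of 4 was called higher, against 0.673% of all 12339 genes, and 2 of 4 lower, against 2.84%. In CD115- CDPs none was called in either direction by limma over all 6 libraries, where 0.0409% of all 12229 genes were called higher and 0.0654% lower, and 1288 genes and 3 of the 6 had an unadjusted p under 0.05. With the replicate block 1 of 6 was called higher there, against 0.376%, and 2 of 6 lower, against 1.46%. Values that did not overlap between genotypes were found above WT for 1 and below WT for 4 of 5 genes in MPPs, against 6.98% and 23.3% of all genes, above for 1 and below for 1 of 6 in CD115- CDPs, against 7.68% and 10.6%, and above for 1 and below for 2 of 4 in CLPs, against 15.3% and 18.6%. Over all genes tested the log2 fold changes had medians of -0.11 (MPPs), -0.07 (CD115- CDPs) and 0.01 (CLPs), and it moved to -0.004 in MPPs with median ratio scaling and to -0.19 in CD115- CDPs after rescaling to TPM. The direction of each tested gene was the same under both of these and under quantile normalization.

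The balance between the inhibitory and the activating genes was compared within each library as a log2 ratio with 1 FPKM added to both sides. The ratio of *Fcgr2b* to the sum of *Fcgr1*, *Fcgr3* and *Fcgr4* was -0.07, -0.17 and -0.17 in WT MPPs and 3.27, 3.39 and 4.09 in KO-labelled MPPs. In WT MPPs the inhibitory and activating receptor genes were thus near parity, and the difference of 3.73 between the genotype means was many times the SDs of 0.0576 and 0.443 (n = 3 each). In CD115- CDPs the ratio was 2.26, 1.60 and 0.48 in WT and 4.22, 4.14 and 3.12 in KO-labelled libraries, and in CLPs 3.43, 2.68 and 2.52 in WT and 5.93, 5.84 and 5.79 in KO-labelled libraries. All KO-labelled libraries exceeded all WT libraries of the same population, by a mean difference of 2.38 in CD115- CDPs and 2.98 in CLPs. Within 1 population the two-sided exact permutation test of 3 against 3 libraries cannot go below p = 0.10, the value found in each. Over the 3 populations, permuted within each, the mean difference was 3.03 with an exact permutation p = 0.00025, the smallest that the 8000 arrangements can give. This permutation treats the populations as independent, while same-numbered MPP and CD115- CDP libraries of a genotype deviated together. The p can therefore be too small, also for the ratios to *Fcer1g* and *Fcgr3* below. All 3 ratios have *Fcgr2b* above the line, and its values alone did not overlap between genotypes in any population. The 3 tests are thus not independent of its rise or of each other. As a share of summed FPKM of the 4 receptor genes, *Fcgr2b* went from 46.8% to 48.6% in WT MPPs to 91.2% to 95.1% in KO-labelled MPPs, from 58.5% to 86.8% to 90.2% to 95.6% in CD115- CDPs, and from 88.1% to 95.2% to 98.7% to 99.1% in CLPs.

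Against the gamma chain the mean shift was larger in each population than against the summed activating receptors, by values that were not tested against each other. The log2 ratio of *Fcgr2b* to *Fcer1g* was -2.25, -2.09 and -2.36 in WT MPPs and 1.56, 1.67 and 1.74 in KO-labelled MPPs. In CD115- CDPs it was -3.63, -3.54 and -3.44 in WT and 0.58, 0.29 and -0.02 in KO-labelled libraries. In this ratio WT 3 did not stand apart, with an SD of 0.0952 over the WT libraries against 0.901 for the ratio to the activating receptors, while in WT MPPs (0.136 against 0.0576) and KO-labelled CLPs (0.381 against 0.0735) the SD was the larger one. In CLPs it was -2.37, -2.78 and -2.55 in WT and 1.81, 2.41 and 2.52 in KO-labelled libraries. The mean difference over populations was 4.18 (exact permutation p = 0.00025, the smallest possible), from 3.82 in CD115- CDPs and 3.89 in MPPs to 4.81 in CLPs. *Fcer1g* was the most abundant of the 6 genes in all 9 WT libraries, and *Fcgr2b* was so in 8 of 9 KO-labelled libraries, the exception being KO 3 of CD115- CDPs. The log2 ratio to *Fcgr3* alone differed by 3.65 (MPPs), 2.33 (CD115- CDPs) and 3.12 (CLPs), with a mean of 3.03 (exact permutation p = 0.00025). The groups of each of the 3 ratios did not overlap in any population, and the same-numbered pairs of libraries differed upward in 9 of 9.

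**Figure D3:**
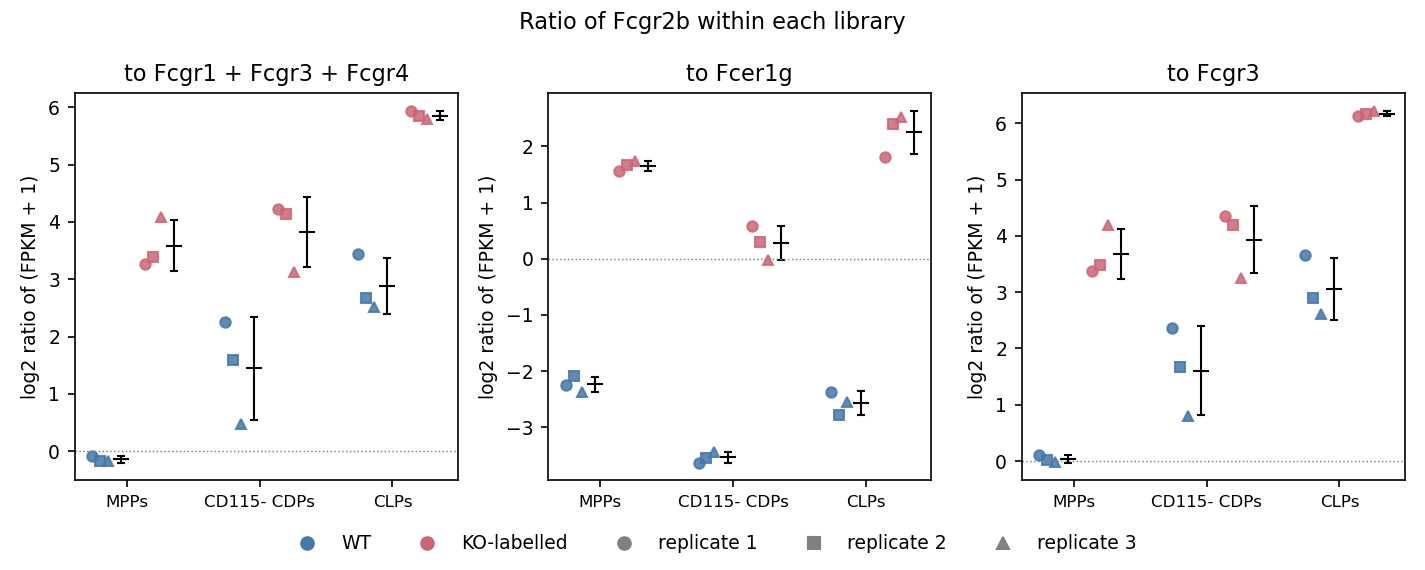
Log2 ratio of *Fcgr2b* to the summed activating receptors, to *Fcer1g* and to *Fcgr3* in each library (1 FPKM added to both sides); blue is WT and red KO-labelled, the shape gives the replicate number, and the bar beside each group is the mean ± SD of 3 libraries. In every panel and population the 3 KO-labelled libraries lie above the 3 WT libraries.

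Genes of other cell types differed between the same groups. The counts of markers below WT without overlap stand against 23.3% of all tested genes in MPPs and 18.6% in CLPs. The 9 markers of monocytes and macrophages, cells rich in *Fcer1g*, *Fcgrt* and *Fcgr1*, summed to 144.8 to 167.6 FPKM in WT MPPs and 54.1 to 93.0 FPKM in KO-labelled MPPs, with 8 of 9 below WT without overlap, and to 199.2 to 236.1 and 14.6 to 29.0 FPKM in CLPs, with 7 of 9 below. The 8 mast cell and basophil markers, another source of *Fcer1g*, summed to 233.9 to 263.3 FPKM in WT and 88.5 to 144.2 FPKM in KO-labelled MPPs. NK cell markers, from cells that use *Fcgr3* and *Fcer1g*, summed to 27.4 to 34.1 FPKM in WT and 71.2 to 74.5 FPKM in KO-labelled CD115- CDPs and to 21.3 to 37.3 and 68.2 to 83.7 FPKM in CLPs. In each, only 1 of 6 markers lay above WT without overlap, against 7.68% (CD115- CDPs) and 15.3% (CLPs) of all tested genes. Neutrophil precursor markers summed to 3567 to 3707 FPKM in WT and 1586 to 2625 FPKM in KO-labelled MPPs, with 8 of 11 below. Dendritic cell markers summed to 343.7 to 389.9 FPKM in WT and 120.6 to 191.3 FPKM in KO-labelled CLPs, with 3 of 8 below and 1 above. Their sums overlapped in MPPs (220.7 to 254.4 and 144.8 to 439.9 FPKM) and in CD115- CDPs (303.1 to 465.3 and 95.7 to 398.9 FPKM). Erythroid markers summed to 250.4 to 282.3 FPKM in WT and 0.62 to 8.02 FPKM in KO-labelled MPPs, with 6 of 6 below. No defining marker of these lists was at 0 in all 6 libraries of a population. The 8 B lymphoid markers, from cells in which *Fcgr2b* is the main Fc gamma receptor gene, summed to 49.1 to 55.4 FPKM in WT and 15.9 to 30.8 FPKM in KO-labelled MPPs, and to 269.9 to 778.3 and 223.1 to 512.8 FPKM in CLPs, without overlap in MPPs and with overlap in CLPs. In CD115- CDPs the B lymphoid sums overlapped, at 46.0 to 116.3 and 35.5 to 187.2 FPKM. The part of any of these cells in the results for the receptor genes was not tested.

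Across populations, the levels of *Fcer1g* and *Fcgr3* differed most. Each population is a separate table, so that population and table cannot be told apart. By the mean log2(FPKM + 1) in WT libraries *Fcer1g* was highest in CD115- CDPs, then in CLPs and then in MPPs: it was higher in CD115- CDPs than in MPPs by 1.77 (SE 0.285, adjusted p by limma = 0.000390) and higher in CLPs than in MPPs by 1.09 (adjusted p = 0.0108, or 0.0528 without WT 2 of CLPs), while CLPs and CD115- CDPs did not differ beyond their spread (-0.69, adjusted p = 0.130). *Fcgr3* was highest in MPPs, followed by CD115- CDPs and CLPs, and was lower in WT CLPs than in WT MPPs by 2.26 (log2 difference -2.26, SE 0.548, limma adjusted p = 0.00666); CD115- CDPs did not differ beyond their spread from MPPs (-1.10, adjusted p = 0.166) or CLPs (adjusted p = 0.175). *Fcgr4* had -0.91 for CLPs against MPPs (adjusted p = 0.0367), under the minimum fold. Without WT 3 of CD115- CDPs, *Fcgr3* (-1.98, adjusted p = 0.000896) and *Fcgr4* (-1.103, adjusted p = 0.00398) were called lower in CD115- CDPs than in MPPs. Thus 1 of 5 genes tested differed between CD115- CDPs and MPPs, against 6.79% of all 12421 genes, 2 of 5 between CLPs and MPPs, against 8.70%, and none between CLPs and CD115- CDPs, against 2.94%. Same-numbered MPP and CD115- CDP libraries of a genotype deviated together (correlations of 0.155 to 0.38 in WT and 0.352 to 0.743 in KO-labelled libraries). With the number as a block between these 2 populations, an alternative added after the data were seen, the calls for WT and KO-labelled libraries stayed with *Fcer1g* alone (adjusted p = 0.0036 and 0.0357), 1 of 5 in each against 7.49% and 1.12% of all genes, and *Fcgr3* had an adjusted p of 0.182 in WT. No *Fcgr2b* difference was called: CLPs exceeded MPPs by 0.76 (adjusted p = 0.0555) and CD115- CDPs exceeded MPPs by 0.47 (adjusted p = 0.228).

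In KO-labelled libraries *Fcer1g* was again highest in CD115- CDPs, while no order between CLPs and MPPs was established. CD115- CDPs exceeded MPPs by 1.47 (SE 0.285, adjusted p by limma = 0.00771), the 1 call of 5 against 1.31% of all genes, and CLPs were lower than CD115- CDPs by 1.62 (log2 difference -1.62, adjusted p = 0.00249), while CLPs and MPPs differed by -0.16 (adjusted p = 0.734). *Fcgr3* was lower in KO-labelled CLPs than in MPPs (log2 difference -2.06, adjusted p = 0.0190), the 1 call of 5 against 4.90%, and than in CD115- CDPs (-1.90, adjusted p = 0.0227), so that 2 of 5 were called there against 3.68%. The first *Fcgr3* call was lost without KO 1 or KO 2 of MPPs or KO 1 or KO 3 of CLPs (adjusted p up to 0.0878), and the second without KO 2 or KO 3 of CD115- CDPs or any 1 of the KO-labelled CLP libraries (adjusted p up to 0.0709). *Fcgr2b* lay within 0.43 of itself between any pair of KO-labelled populations, with no adjusted p below 0.287.

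Whether the genotype difference itself varied between populations was tested as an interaction over all 18 libraries. None of the 5 genes tested passed by limma, against 2.45% of all 12421 genes; 1 of them, *Fcer1g*, had an unadjusted p under 0.05 (0.0196, adjusted p = 0.209). With the replicate number of each population as a block, *Fcer1g* passed (adjusted p = 0.0237), 1 of 5 against 8.67% of all genes, and its fall in CLPs was larger than in MPPs by 1.24 on the log2 scale (SE 0.240, adjusted p = 0.0105). For *Fcgr2b* the interaction had an adjusted p of 0.770 and of 0.525 with the block, and its log2 fold change in MPPs exceeded that in CLPs by 0.32 (SE 0.387). For *Fcgrt* the adjusted p was 0.740, for *Fcgr3* 0.703 and for *Fcgr4* 0.496, or 0.0872 for *Fcgr4* with the block. With the block the log2 fold change of *Fcgr4* in MPPs was below that in CLPs by 0.80 (SE 0.240, limma adjusted p = 0.0496). It rests on few reads in CLPs, where *Fcgr4* was too low for a test on its own.

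The other genes of the pathway were taken from lists. The counts below stand against 1.32% of all genes called lower in MPPs, 0.0654% in CD115- CDPs (1.46% with the replicate block) and 2.84% in CLPs, and list medians against -0.11, -0.07 and 0.01 over all genes. Of the other receptors with inhibitory motifs, none was called higher in any population. In CLPs 6 of 16 tested were called lower, with a median log2 fold change of the list of -0.74 against 0.01 over all genes, and the falls with the largest size were *Pirb* (-3.32, limma adjusted p = 9.37e-06), the paired receptor that binds class I molecules, *Cd300lf* (-2.41), *Cd22* (-2.40), a sialic acid receptor of B cells and dendritic precursors, and *Lair1* (-2.18), a collagen receptor. *Pirb* was 16.85, 20.31 and 12.59 FPKM in WT and 0.62, 0.89 and 0.71 FPKM in KO-labelled CLPs. In MPPs *Pirb* was the 1 of 15 called lower (-1.04, adjusted p = 0.0409), with a list median of -0.42 against -0.11; the call was lost with the replicate block (adjusted p = 0.0543), with median ratio scaling (-0.94) and with quantile normalization (-0.82). In CD115- CDPs none of 16 was called by limma, and 5 were called lower with the replicate block, among them *Cd22* (-2.38, adjusted p = 0.0110 with the block), with a list median of -0.71 against -0.07. *Cd33*, *Cd72*, *Clec12a*, *Lilrb4a* and *Siglece* did not have the same sign in all populations.

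No enzyme or adaptor that acts behind inhibitory motifs was called higher. Of 9 tested, *Inppl1* (SHIP2) was the 1 called in any population, lower in CLPs (-1.004, limma adjusted p = 0.00429, and under the minimum fold with quantile normalization, -0.97), and the list medians were -0.25, -0.06 and 0.06 in MPPs, CD115- CDPs and CLPs. *Inpp5d*, the SHIP1 that FcγRIIB recruits, was 78.33, 77.36 and 69.27 FPKM in WT and 80.13, 99.72 and 83.94 FPKM in KO-labelled MPPs, with a log2 fold change of 0.22 (adjusted p = 0.256). *Csk*, *Dok1*, *Dok3*, *Inpp5d*, *Pag1* and *Ptpn11* did not have the same sign in all populations.

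On the activating side, the other chains with activating motifs and the receptors that pair with them fell with *Fcer1g* in CLPs. There 5 of 8 tested were called lower and 1 higher, with a list median of -1.90, or of -0.98 over the 10 tested after rescaling to TPM. *Tyrobp*, which encodes DAP12, the closest functional relative of the FcR gamma chain, was 365.52, 447.54 and 391.81 FPKM in WT and 39.02, 62.11 and 60.63 FPKM in KO-labelled CLPs, and its log2 fold change was -2.90 (SE 0.180, adjusted p by limma = 2.37e-05). The others with the largest falls were *Cd300c* (-4.52), *Siglech* (-4.11), a DAP12-coupled receptor of plasmacytoid dendritic cells, and *Klrd1* (-1.93). *Trem1*, a DAP12-coupled receptor of myeloid cells named here after its values were seen, was the 1 called higher (1.27, adjusted p = 0.0199). In CD115- CDPs *Cd300c* (-2.74, adjusted p = 0.0355) and *Klrd1* (-1.84, adjusted p = 0.0401, or 0.0635 with quantile normalization) were called lower of 11, with *Siglech* and *Tyrobp* added by the replicate block, and the list median was -0.89. In MPPs none of 10 was called, with a list median of -0.12, which was 0.08 with quantile normalization; *Tyrobp* there had a log2 fold change of -0.86 (adjusted p = 0.0214). *Cd247*, *Clec4e* and *Hcst* did not have the same sign in all populations.

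Among the 21 kinases and adaptors downstream of activating motifs, 1 was called lower in MPPs (none with quantile normalization) and 3 in CLPs, and none was called higher. *Fgr*, a Src family kinase of myeloid cells, was called lower in CLPs (-3.95, limma adjusted p = 1.88e-06), where it was 38.22, 38.86 and 33.02 FPKM in WT and 1.87, 1.43 and 1.06 FPKM in KO-labelled libraries. *Pik3ap1*, an adaptor for PI3 kinase, was also called lower in CLPs (-1.43). In CD115- CDPs none was called, and 2 were called lower with the replicate block, among them *Fgr* (-1.89, adjusted p = 0.00886 with the block). The list medians were -0.13, -0.30 and -0.20 in MPPs, CD115- CDPs and CLPs. *Btk*, *Cbl*, *Lat*, *Lcp2*, *Pik3ap1*, *Plcg1*, *Plcg2*, *Src* and *Vav3* did not have the same sign in all populations.

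Other Fc receptors were mostly too low to test, with 5 of 13 in the table tested in MPPs and CD115- CDPs and 3 of 13 in CLPs. *Ms4a2*, the beta chain of the IgE receptor on mast cells and basophils, which also uses the FcR gamma chain, was called lower in MPPs (-1.05, limma adjusted p = 0.00634, but under the minimum fold with median ratio scaling, -0.99, and quantile normalization, -0.82), and *Fcer1a*, its IgE-binding chain, lower in CD115- CDPs with the replicate block (-1.005, adjusted p = 0.0264). *Fcrla*, an Fc receptor-like gene of B cells next to *Fcgr2b*, had no common sign. Of the partners of FcRn and its class I-like relatives none was called in any population by limma, with or without the block, of 13 tested in MPPs and CD115- CDPs and 12 in CLPs, and the list medians were -0.06, 0.06 and 0.08; those of MPPs and CD115- CDPs changed sign with the scaling. *B2m*, the light chain of FcRn, was 1430.05, 1403.65 and 1585.47 FPKM in WT and 1440.58, 1336.41 and 1222.40 FPKM in KO-labelled MPPs, and its log2 fold change lay between -0.15 and 0.11 in the 3 populations. *B2m*, *Calr*, *H2-D1*, *H2-K1*, *Hfe*, *Mr1*, *Rab11a* and *Rab11b* did not have the same sign in all populations.

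**Figure D4:**
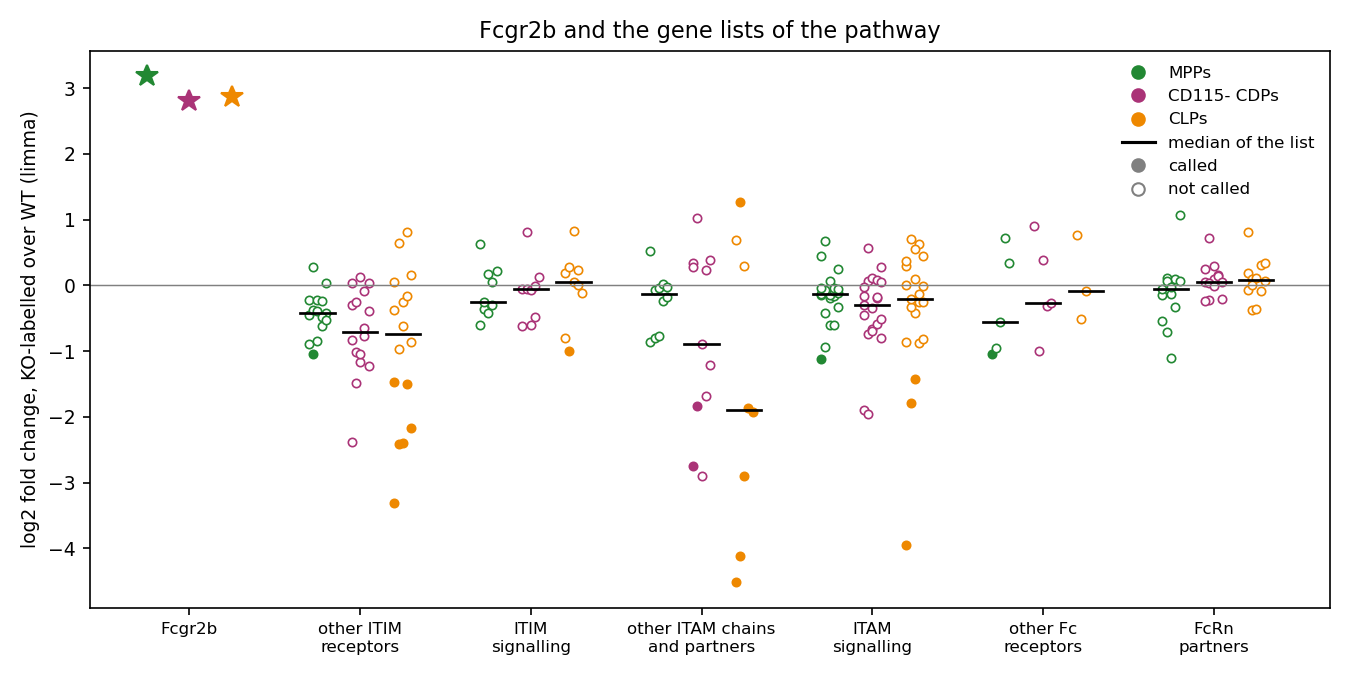
Log2 fold change (KO-labelled over WT, limma) of *Fcgr2b* (stars) and of each tested gene of 6 pathway lists (points, filled where called without the replicate block), by population; the black line is the median of a list. *Fcgr2b*, between 2.80 and 3.18, lies above every gene of the lists, of which *Trem1* in CLPs, at 1.27, is the highest.

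Of 12 transcription factors listed for the myeloid and lymphoid Fc receptor genes, 3 were called lower in CLPs, among them *Spib* (-5.20, limma adjusted p = 5.37e-07) and *Irf8* (-2.72, adjusted p = 6.26e-06), and 1 in MPPs, *Egr2* (-1.14, adjusted p = 0.0374). The *Egr2* call was lost with median ratio scaling (adjusted p = 0.0623) and quantile normalization (adjusted p = 0.115), and quantile normalization left 2 of the 3 calls in CLPs, those of *Spib* and *Irf8*. *Spib* and *Irf8* were called lower in CD115- CDPs with the replicate block (-2.35 and -1.75). *Spi1*, which encodes PU.1, was 137.27, 138.71 and 139.96 FPKM in WT and 147.69, 137.38 and 104.03 FPKM in KO-labelled MPPs, and was not called in any population. *Cebpe*, *Gfi1* and *Irf4* did not have the same sign in all populations. The list also holds *Trim33*, the targeted gene. For *Egr2*, as for *Fcgr2b*, the paper cites earlier work in which TRIM33 opposed transcription directed by PU.1.

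The genes around *Fcgr2b* were compared with it. Within 500 kb on either side, 75 genes are annotated and 32 were in each table, of which 24 other than the Fc receptor genes themselves were tested in MPPs and 23 in each of CD115- CDPs and CLPs. None of these was called in any population without the block by limma, and the median log2 fold changes were -0.02, 0.15 and -0.03. Of the nearest tested genes that encode no Fc receptor or relative, *Dusp12*, a phosphatase gene, had log2 fold changes of -0.04, 0.38 and 0.26 (MPPs, CD115- CDPs, CLPs), and *Cfap126* of -0.30, -0.10 and -0.06. *Fcrla*, the nearest tested gene, whose lower coordinate is 43.0 kb below that of *Fcgr2b*, was 0.43, 0.36 and 0.53 FPKM in WT and 0.86, 1.06 and 2.44 FPKM in KO-labelled MPPs. In CD115- CDPs it was 2.98, 1.55 and 3.76 FPKM in WT and 7.55, 6.14 and 4.22 FPKM in KO-labelled libraries, above WT without overlap (log2 fold change 0.91, limma adjusted p = 0.408). In CLPs it was 22.15, 10.53 and 14.12 FPKM in WT and 10.69, 9.81 and 10.05 FPKM in KO-labelled libraries. *Fcrla* was not called in any population. *F11r*, which encodes the junctional adhesion molecule JAM-A and lies 477.0 kb above, was called higher in CD115- CDPs with the block (1.63, adjusted p = 0.0109). It was 0.51, 1.12 and 0.66 FPKM in WT and 5.15, 5.55 and 2.93 FPKM in KO-labelled CD115- CDPs. *F11r* was above WT without overlap in the other populations too. Its log2 fold change was 0.50 in MPPs (limma adjusted p = 0.190) and 0.80 in CLPs (adjusted p = 0.0140, under the minimum fold). *Adamts4*, *Nr1i3* and *Fcrlb* were below the minimum throughout and were not tested. *Fcrlb*, whose lower coordinate is 53.8 kb below, was 0, 0.04 and 0.24 FPKM in WT and 0.79, 0.61 and 0.46 FPKM in KO-labelled CLPs. It was 0, 0 and 0.2 FPKM in WT and 0.4, 0.38 and 0.62 FPKM in KO-labelled CD115- CDPs. In MPPs *Fcrlb* was 0.23, 0 and 0 FPKM in WT and 0.23, 0.32 and 0.51 FPKM in KO-labelled libraries. The others tested in at least 1 population included *Nos1ap*, *Olfml2b*, *Atf6*, *Sdhc*, *Pcp4l1*, *Tomm40l*, *Apoa2*, *B4galt3*, *Ppox*, *Usp21*, *Ufc1*, *Dedd*, *Nit1*, *Pfdn2*, *Klhdc9*, *Nectin4*, *Arhgap30*, *Usf1* and *Tstd1*, and over all the neighbors tested the range was -0.49 to 0.72 in MPPs and -0.51 to 0.80 in CLPs.

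**Figure D5:**
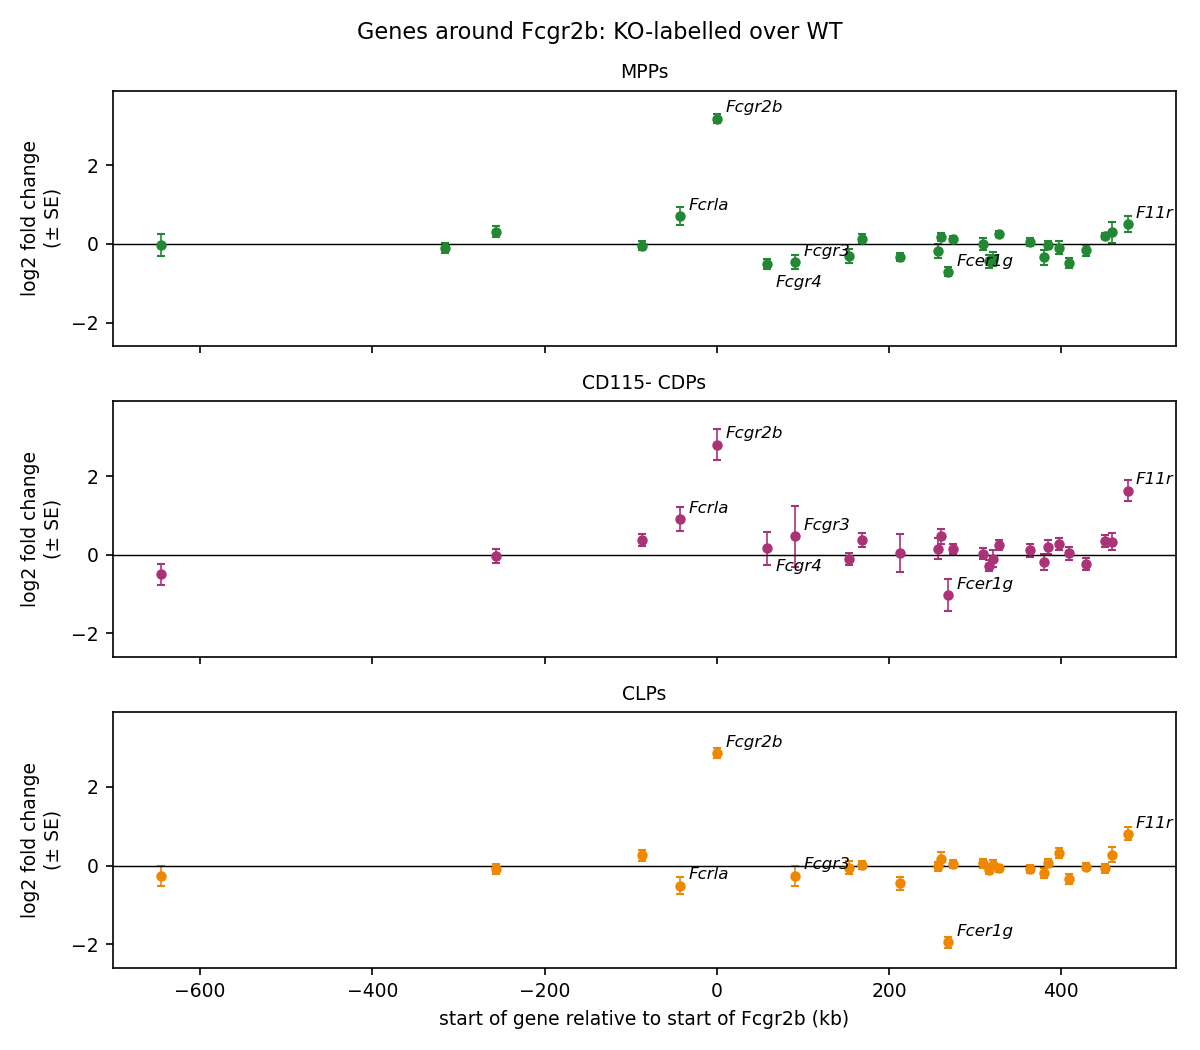
Log2 fold change (KO-labelled over WT, ± standard error, limma) of the tested genes within 500 kb of *Fcgr2b*, by the distance of their lower coordinates from that of *Fcgr2b* in kb; each panel is a population. *Fcgr2b* stands at 3.18, 2.80 and 2.86, and among the other genes the highest is *F11r* in CD115- CDPs at 1.63.

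The genes most like each receptor gene were taken by Pearson's r of log2(FPKM + 1) over the 18 libraries, which share genotype and population differences, and are given as a description. *Fcgr2b* was most like *Sva* (r = 0.957), *Commd10* (0.953) and *Camk2b* (0.902). *Fcer1g* was most like *Lgals1* (0.960), *Atp6ap1* (0.955) and *Slpi* (0.950), and among the 3 most like *Fcgrt* was *Zbtb7b* (0.948). *Fcgr3* was most like *Hp* (0.953), *Cdc42ep4* (0.946) and *Creg1* (0.944), and *Fcgr4* like *Hfe* (0.899), *Pisd* (0.887) and *Lyz2* (0.887). *Fcgr1* was most like *Ifi205* (0.950), *Ifi204* (0.949) and *Cd300lg* (0.943), a relation over values that are near 0 in nearly all libraries but WT 3 of CD115- CDPs.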

How the data were processed

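MPPs, CD115- CDPs and CLPs of WT and KO-labelled mice were profiled by RNA-seq, with 3 libraries per group. Single-end 50-base reads were filtered with SOAPnuke by the authors, who aligned them and quantified genes with RSEM 1.2.12; the submitters' processing notes also name Bowtie2 2.2.5, HISAT2 2.0.4 and the mm10 build. What was deposited is 1 table of FPKM for each population, which the authors gave with 2 decimals. RSEM divides reads shared by similar genes by estimate. Read counts were not used here, so the authors' count tests were not repeated.

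Each population was fitted on its own with limma 3.58.1 (lmFit and eBayes with a trend) in R 4.3.3, on log2 of FPKM plus a pseudocount of 1, for genes whose 6 libraries averaged 0.5 FPKM or more, with Benjamini-Hochberg adjustment over every tested gene. A gene was called at adjusted p 0.05 or less if its log2 fold change was 1 or more in size. Interactions were F tests over the 18 libraries with an intercept for each population, called by the adjusted p alone; levels between populations came from a fit of the same libraries to 6 groups. Log2 ratios were compared by exact permutation. The fits were tested on simulated data. Python 3.11.15, pandas 2.3.3, numpy 2.4.6 and scipy 1.17.1 were used.

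The replicate numbers of the labels were checked for pairing by the correlation of deviations from the group means. Same-numbered WT and KO-labelled libraries had 0.437 to 0.79 in CD115- CDPs and 0.131 to 0.4 in CLPs, and 0.038 to 0.482 in MPPs. By the lowest pair, the number was taken to pair libraries in the first 2 populations. The same-number mean was 0.287 in CLPs and 0.331 in MPPs. Unlike numbers averaged -0.261 in CD115- CDPs, -0.139 in CLPs and -0.155 in MPPs. In CD115- CDPs numbers 1 and 2 also correlated across (0.381 for WT 1 with KO 2, 0.663 for WT 2 with KO 1). The block there thus mainly sets number 3 apart. In CLPs WT 3 was nearer to KO 2 (0.234) than to KO 3 (0.131). The labels do not say which mice gave which library; the design text calls the 3 libraries biological repeats, and p-values measure the spread between them.

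Depth was estimated from the steps between FPKM of genes with a single transcript of known length, and read numbers from it are approximate. The genes, lists and named genes (the 6 genes, called list genes up to the 4 largest, list genes of unlike sign, neighbors within 500 kb and the 3 most correlated genes) were chosen with earlier results of these data known. Positions and promoters are from RefSeq (GRCm38.p6) and transcripts from GENCODE vM21. Protein sequences were not used here. Alternatives were another pseudocount, filters and scalings, no trend, the replicate block, leaving out single libraries and, added after the data were seen, both CD115- CDP libraries numbered 3, and a replicate block between MPPs and CD115- CDPs. Some genes that the rule names are not reported here.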

Additional observations from a re-analysis of the deposited data

Results flagged for a closer look

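The genotype difference of *Fcer1g* differed between populations in the interaction test with the replicate number as a block (limma adjusted p = 0.0237) and not without it (adjusted p = 0.209). The log2 fold change was -1.95 in CLPs against -1.02 in CD115- CDPs and -0.71 in MPPs. Monocyte and macrophage markers were also lower in KO-labelled CLPs, at 14.6 to 29.0 FPKM in sum against 199.2 to 236.1 FPKM in WT; their part in the result was not tested.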

How the results depend on the processing

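*Fcgr2b* kept its direction and its call in MPPs and CLPs under every alternative run. In CD115- CDPs the call was gained with the replicate block (2.80), without WT 3 and without both libraries numbered 3 (3.21); leaving out 1 library gave 2.48 to 3.27 there, 3.10 to 3.27 in MPPs and 2.78 to 2.98 in CLPs. In MPPs, where the numbers were not taken to pair libraries, the block changed no call of the 6 genes. The other genes had 3 calls in all, 5 with the block, 1 with a filter at a mean of 5 FPKM, which removes *Fcgrt* from MPPs and CLPs, and 2 to 3 without single libraries. In CD115- CDPs *Fcgr3* (-0.0558) and *Fcgr4* (-0.087) changed sign without WT 1, and without single libraries they reached 1.35 and 0.39; the cause was not tested. The interaction passed for 1 gene, *Fcer1g*, with the block and for 0 to 1 without single libraries (adjusted p = 0.0131 without WT 3 of CD115- CDPs). Population differences numbered 5 to 9 without single libraries against 7.

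Genes called in MPPs numbered 183, and 188 with the block, 74 with the filter at 5 FPKM, 290 as TPM, 112 with quantile normalization, 475 with no minimum fold and 54 (without WT 3) to 916 (without KO 3) when single libraries were left out. In CD115- CDPs they numbered 13, and 224 with the block, 6 with no filter, 223 without both libraries numbered 3 and 0 to 10 without single libraries, the highest without WT 3 or KO 3. In CLPs they numbered 434, and 283 with the filter at 5 FPKM, 1768 with no minimum fold and 408 to 476 without single libraries. For the ratios to the activating receptors, *Fcer1g* and *Fcgr3*, the block was run as sign flips of all same-numbered pairs, those of MPPs included. Pairing cannot change the mean differences of 3.03, 4.18 and 3.03. The exact sign-flip p = 0.00391 is the smallest that 512 flips can give, and the flips treat the populations as independent. MPPs alone gave 3.73 for the first ratio and CLPs alone 4.81 for the second, and leaving out single libraries gave 2.87 to 3.16, 4.13 to 4.25 and 2.89 to 3.16. Among the other genes named for MPPs and CLPs, the block ended the call of *Pirb* in MPPs (adjusted p = 0.0543) and changed no other. At these depths *Fcgr1* and *Fcgr4* rest on few reads.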
